A study of Homo sapiens with 6 samples.

Results

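The genes described here are 10 transcripts of the insulin-like growth factor (IGF) axis in SW480 cells, chosen by name as the ligand IGF2, the receptors IGF1R, IGF2R and INSR, the binding proteins IGFBP2, IGFBP3, IGFBP4 and IGFBP6, and the adaptors IRS1 and IRS2. All 10 were found among the 63677 gene identifiers counted, and all 10 passed the filter on low counts that left 14286 genes for testing. SW480 is an established human cell line that was grown from a colorectal adenocarcinoma. RNA sequencing compared 3 control libraries, from cells that carried a doxycycline-inducible vector for green fluorescent protein (GFP), with 3 libraries from cells carrying the same kind of vector for POU5F1B, a retrogene copy of the pluripotency gene POU5F1. Both groups were transduced, and both received doxycycline at 1 µg/mL for 72 h, so the groups share the inducer, and no untransduced or uninduced cells were analysed here. The line stands for tumour epithelium in culture only, and the serum in its medium supplies growth factors of its own.

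IGF1 and IGF2 are small secreted hormones that bind the receptor tyrosine kinase IGF1R, while insulin acts chiefly through INSR, whose shorter isoform also takes IGF2. IGF2R, the cation-independent mannose 6-phosphate receptor, has no kinase domain and carries IGF2 to lysosomes. Binding proteins hold the ligands outside the cell and set how much reaches a receptor. Inside the cell, IRS1 and IRS2 dock on the activated receptors and recruit phosphoinositide 3-kinase, which starts the AKT arm of the pathway. IGF2 is an imprinted gene that is often expressed in colorectal tumours.

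The RefSeq promoters of IRS1, IRS2 and IGFBP3 are shown because these genes had the smallest p-values of the 10 members, the adaptors with negative and IGFBP3 with positive fold changes. Each run is the 250 bases before the annotated start, 5′ to 3′ on the strand of the gene, and capitals mark GC boxes, the letters GGGCGG read on either strand. On GRCh38.p14 the windows are chr2:226799821-226800070 for IRS1, chr13:109786584-109786833 for IRS2 and chr7:45921273-45921522 for IGFBP3, all on the minus strand.
IRS1: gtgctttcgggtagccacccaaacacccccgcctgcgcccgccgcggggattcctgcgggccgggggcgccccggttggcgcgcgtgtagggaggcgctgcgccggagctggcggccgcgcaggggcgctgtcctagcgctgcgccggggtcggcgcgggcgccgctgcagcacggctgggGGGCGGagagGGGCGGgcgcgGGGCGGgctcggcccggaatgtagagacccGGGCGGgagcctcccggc
IRS2: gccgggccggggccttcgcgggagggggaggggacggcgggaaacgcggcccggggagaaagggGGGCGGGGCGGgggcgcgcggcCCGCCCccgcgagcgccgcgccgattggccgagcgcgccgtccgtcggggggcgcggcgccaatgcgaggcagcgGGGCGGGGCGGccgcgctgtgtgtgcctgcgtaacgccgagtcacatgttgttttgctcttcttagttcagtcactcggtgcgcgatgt
IGFBP3: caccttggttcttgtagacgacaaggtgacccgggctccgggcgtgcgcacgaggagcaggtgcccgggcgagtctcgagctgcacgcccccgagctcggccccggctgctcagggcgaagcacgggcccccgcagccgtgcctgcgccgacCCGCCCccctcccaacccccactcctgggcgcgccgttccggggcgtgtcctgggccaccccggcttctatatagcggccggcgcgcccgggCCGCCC

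The IRS1 window held 4 GC boxes in 80.8% GC, the IRS2 window 5 in 76.4% GC with overlapping copies counted, and the IGFBP3 window 2 in 76.0% GC. At least 1 window of each of the 9 members with a promoter entry (all but IGF2) held a GC box, against 42.6% of 35116 promoters of the same length. The units differ, since a member counts by any of its windows (11 windows for the 9 members) and the background counts single windows. The octamer ATGCAAAT, the sequence named for POU-domain factors, occurred on either strand in 0 of these 9 members and in 1.63% of all promoters. A match or its absence describes only the letters of these windows.

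Library depth ranged from 10767947 to 12787637 counts, and 3 counts corresponded to 0.229 to 0.278 CPM, the count scaled by the TMM library size. POU5F1B itself had 6, 5 and 1 counts in GFP replicates 1, 2 and 3 and 15027, 11393 and 1458 in POU5F1B replicates 1, 2 and 3, so the transgene followed the labels but was lowest in POU5F1B replicate 3. Sample quality weights gave GFP replicate 3 a weight of 0.111 against 0.575 to 2.79 for the other libraries. Of 9 colon epithelium markers, 7 had at least 10 counts in every library, whereas the intestinal factor CDX1 had at most 3 counts in any library. The summed level of all 9 was 6366 to 9580 CPM in GFP and 7908 to 8930 CPM in POU5F1B libraries. KRT8 (2995 to 4251 CPM) and KRT18 (2917 to 3967 CPM) carried most of this sum. Across libraries VIL1 ranged from 14.0 to 211 CPM and EPCAM from 86.8 to 519 CPM. Immune markers (5 genes) summed to at most 1.85 CPM, with PTPRC and CD3E at or under 3 counts, and the 3 endothelial markers found summed to at most 6.53 CPM, with CDH5 and KDR at or under 3 counts.

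With all 6 libraries, none of the 10 IGF axis transcripts changed past the threshold of an adjusted p under 0.05 and a fold above 2 (voom with limma, Benjamini-Hochberg adjustment over all tested genes), and 0% of the tested genes did. The quasi-likelihood test of edgeR and DESeq2 also placed 0 members past it, and over all genes they called 0 and 232 (1.62%). IRS1 and IRS2 were more than 2-fold lower with POU5F1B in replicates 1 and 2, but not in replicate 3. IGFBP3 was higher in each POU5F1B library than in any GFP library. At an unadjusted p under 0.05, 3 of the 10 members were found, IGFBP3 with a positive and IRS1 and IRS2 with negative fold changes, against 11.9% of all tested genes. The groups did not overlap for 2 of the 10, INSR and IGFBP3, both higher with POU5F1B, against 19.4% of all tested genes, a share near that background. In bulk RNA, fewer cells of one kind and less RNA per cell cannot be told apart.

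**Figure D1:**
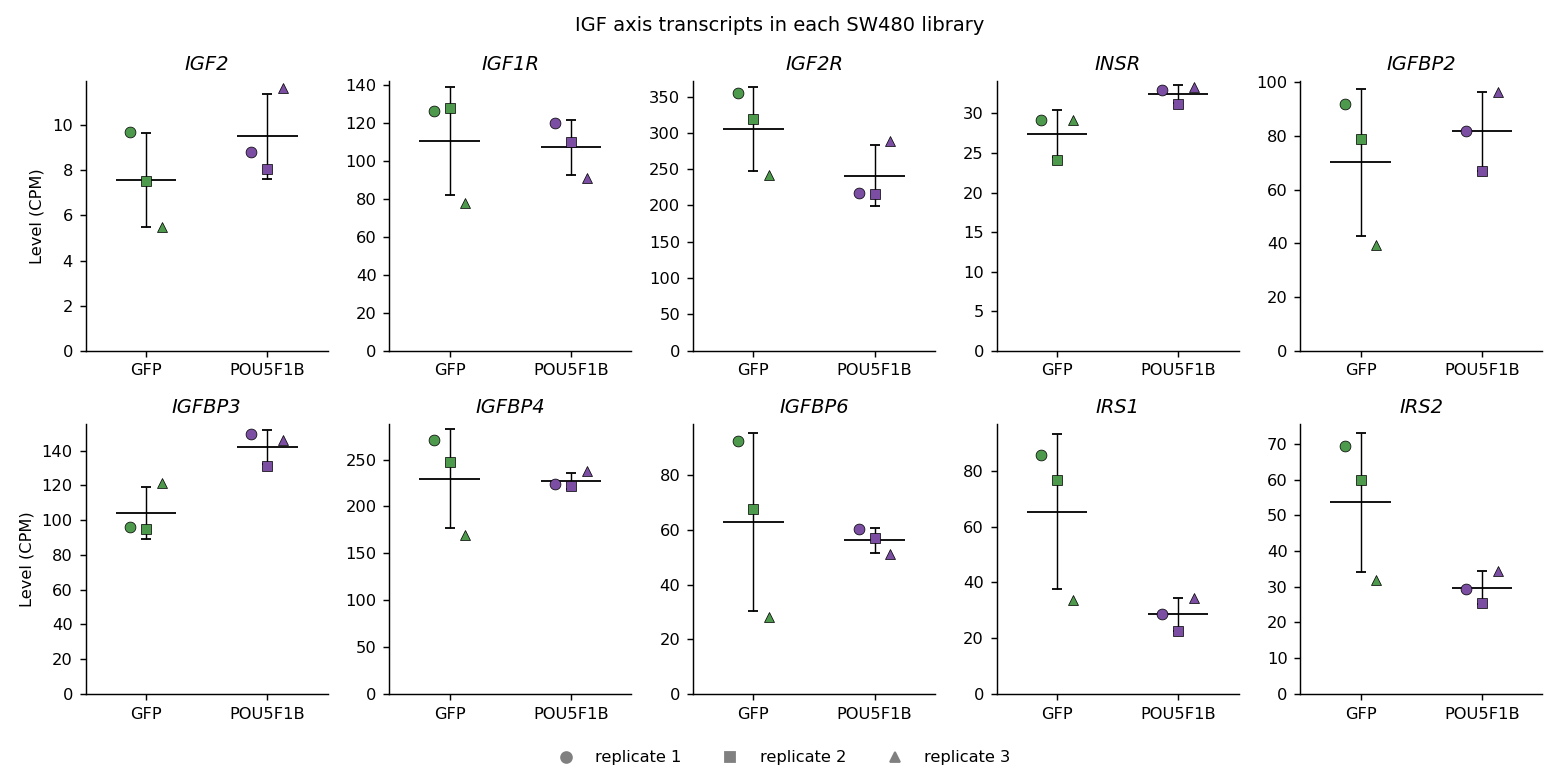
Level of each IGF axis transcript in CPM (vertical axis, from 0) in the 3 GFP (green) and 3 POU5F1B (purple) libraries, with the mean as a line, the SD as a bar and the replicate number as the shape of the point. Points of the groups do not overlap for INSR and IGFBP3, and for IRS1 and IRS2 GFP replicate 3 sits beside the POU5F1B libraries.

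The ligand IGF2 (ENSG00000167244, GRCh37 chromosome 11, 2150342 to 2179621, minus strand) was detected at a low level. It had 115, 99 and 63 counts in GFP replicates 1 to 3 and 112, 87 and 140 counts in POU5F1B replicates 1 to 3. These were 9.69, 7.54 and 5.48 CPM in GFP and 8.81, 8.06 and 11.7 CPM in POU5F1B libraries. The groups overlapped, with the lowest value in GFP replicate 3 and the highest in POU5F1B replicate 3. GFP libraries averaged 7.57 ± 2.10 CPM and POU5F1B libraries 9.51 ± 1.90 CPM (SD, n = 3 each), a log2 fold change of 0.35 ± 0.28 (SE) with an adjusted p of 0.655 by limma. With replicates 1 and 2 only, the log2 fold change was -0.02 ± 0.21, with a 95% interval of -0.47 to 0.43, so the positive value was not found without the replicate 3 libraries.

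The neighbours of IGF2 at this imprinted locus were nearly silent. H19, the noncoding RNA expressed from the opposite parental copy, had 1 to 6 counts per library, and IGF2-AS, an antisense RNA, had 0 or 1. The readthrough gene INS-IGF2 and INS, which encodes insulin, were listed at 0 in all 6 libraries. Because 45.1% of the bases in the exons of the main IGF2 transcript are shared with other annotated genes on the same strand, including INS-IGF2, reads there may not have been assigned to IGF2, and its level is uncertain to that extent.

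IGF1R (ENSG00000140443, chromosome 15, 99191768 to 99507759, plus strand), the signalling receptor for both IGFs, had 126, 128 and 77.7 CPM in GFP replicates 1 to 3 and 120.1, 110.1 and 91.3 CPM in POU5F1B replicates 1 to 3. In both groups replicate 3 was the lowest, and the groups overlapped. The means were 111 ± 28.5 and 107 ± 14.6 CPM, and the log2 fold change was -0.02 ± 0.22 with an adjusted p of 0.981 by limma and a 95% interval of -0.55 to 0.51. That interval leaves room for a change of either sign.

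IGF2R (ENSG00000197081, chromosome 6, 160390114 to 160534539, plus strand), the clearance receptor of IGF2, had 355, 319.6 and 242 CPM in GFP replicates 1 to 3. It had 217, 216 and 289 CPM in POU5F1B replicates 1 to 3. GFP replicates 1 and 2 were the highest and POU5F1B replicates 1 and 2 the lowest, while the replicate 3 libraries lay between them in the opposite order. The log2 fold change was -0.34 ± 0.19 over all libraries (adjusted p = 0.519 by limma) and -0.65 ± 0.08 with replicates 1 and 2 only (adjusted p = 9.48e-05 by limma), under 2-fold in both fits.

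INSR (ENSG00000171105, chromosome 19, 7112266 to 7294425, minus strand), the insulin receptor, had 29.2, 24.1 and 29.1 CPM in GFP replicates 1 to 3 and 33.0, 31.1 and 33.3 CPM in POU5F1B replicates 1 to 3. Each POU5F1B library was above each GFP library, and libraries of the same number differed by 0.18, 0.37 and 0.19 on the log2 scale. The log2 fold change was 0.25 ± 0.15 (adjusted p = 0.534 by limma), and its 95% interval of -0.09 to 0.60 excludes a doubling. The count ratio of IGF1R to INSR was 4.33, 5.31 and 2.67 in GFP replicates 1 to 3 and 3.64, 3.54 and 2.74 in POU5F1B replicates 1 to 3. Replicate 3 held the lowest ratio in each group.

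IGFBP3 (ENSG00000146674, chromosome 7, 45951844 to 45961473, minus strand), which in plasma carries most IGF together with an acid-labile subunit, had 96.1, 94.9 and 121 CPM in GFP replicates 1 to 3. It had 149.7, 131 and 146 CPM in POU5F1B replicates 1 to 3. The lowest POU5F1B library was above the highest GFP library, and GFP replicate 3 was the highest of its group. GFP libraries averaged 104 ± 14.8 CPM and POU5F1B libraries 142 ± 9.84 CPM (SD, n = 3 each). The log2 fold change was 0.46 ± 0.14, with a 95% interval of 0.14 to 0.78 and an adjusted p of 0.297 by limma, and 0.54 ± 0.09 with replicates 1 and 2 only (adjusted p = 0.0011 by limma).

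The other binding proteins gave no such separation. IGFBP4 (ENSG00000141753, chromosome 17, 38599702 to 38613977, plus strand), an inhibitory binding protein that the protease PAPPA cleaves, had 271, 247 and 169.9 CPM in GFP and 224, 221 and 237 CPM in POU5F1B replicates 1 to 3. IGFBP2 (ENSG00000115457, chromosome 2, 217497551 to 217529159, plus strand), which binds IGF2 with high affinity, had 92.0, 78.9 and 39.3 CPM in GFP and 81.8, 67.0 and 96.4 CPM in POU5F1B replicates 1 to 3. IGFBP6 (ENSG00000167779, chromosome 12, 53491220 to 53496129, plus strand), a binding protein with a preference for IGF2, had 92.6, 67.8 and 28.1 CPM in GFP and 60.2, 57.2 and 51.2 CPM in POU5F1B replicates 1 to 3. For all 3 genes GFP replicate 3 was the lowest of the 6 libraries, and the POU5F1B values fell within the range of the GFP values or, for IGFBP2 replicate 3, above it.

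The log2 fold changes of IGFBP2, IGFBP4 and IGFBP6 over all libraries were 0.29 ± 0.32, 0.01 ± 0.18 and -0.01 ± 0.41, with adjusted p-values of 0.753, 0.984 and 0.995 by limma. With replicates 1 and 2 only they were -0.21 ± 0.12, -0.23 ± 0.08 and -0.44 ± 0.14, with adjusted p-values of 0.216, 0.0485 and 0.0302 by limma. The sign for IGFBP2 and IGFBP4 therefore turned with the replicate 3 libraries, and none of the 3 reached a 2-fold change in either fit.

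The 4 binding proteins together had 551, 489 and 358 CPM in GFP replicates 1 to 3 and 516, 477 and 531 CPM in POU5F1B replicates 1 to 3. IGFBP4 made up the largest part of this sum in every library, 47.4% to 50.6% in GFP and 43.4% to 46.4% in POU5F1B libraries. IGFBP3 made up 17.4%, 19.4% and 33.8% in GFP replicates 1 to 3 and 29.0%, 27.5% and 27.5% in POU5F1B replicates 1 to 3. GFP replicate 3 thus had the highest IGFBP3 share of all, and the groups overlapped. These shares are of counts, not of counts per length.

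The adaptors had the most negative fold changes of the 10 members. IRS1 (ENSG00000169047, chromosome 2, 227596028 to 227664536, minus strand), a main docking protein of IGF1R and INSR, had 1019, 1006 and 387 counts in GFP replicates 1 to 3 and 363, 245 and 413 counts in POU5F1B replicates 1 to 3. The levels were 85.8, 76.6 and 33.7 CPM in GFP and 28.5, 22.7 and 34.4 CPM in POU5F1B libraries. GFP replicates 1 and 2 stood well above the other 4 libraries, and GFP replicate 3 was within the range of the POU5F1B libraries. GFP libraries averaged 65.4 ± 27.8 CPM and POU5F1B libraries 28.5 ± 5.84 CPM (SD, n = 3 each). The log2 fold change was -1.11 ± 0.40, with a 95% interval of -2.06 to -0.16 and an adjusted p of 0.353 by limma.

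IRS2 (ENSG00000185950, chromosome 13, 110405042 to 110438930, minus strand), the adaptor prominent in insulin signalling of liver and beta cells, had 823, 785 and 367 counts in GFP replicates 1 to 3 and 374, 275 and 414 counts in POU5F1B replicates 1 to 3. Its levels were 69.3, 59.8 and 31.9 CPM in GFP and 29.4, 25.5 and 34.5 CPM in POU5F1B libraries. As for IRS1, only GFP replicates 1 and 2 were high, and GFP replicate 3 lay among the POU5F1B libraries. GFP libraries averaged 53.7 ± 19.4 CPM and POU5F1B libraries 29.8 ± 4.50 CPM (SD, n = 3 each), and the log2 fold change was -0.79 ± 0.32 (95% interval -1.55 to -0.03, adjusted p = 0.401 by limma).

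With replicates 1 and 2 only, a choice made with the values known, IRS1 and IRS2 were the 2 of 10 members past the threshold, both lower, against 8.36% of all tested genes in either direction and 5.15% lower. The log2 fold change was then -1.67 ± 0.13 for IRS1 (adjusted p = 3.04e-06 by limma) and -1.24 ± 0.13 for IRS2 (adjusted p = 2.71e-05 by limma). The same 2 members passed without GFP replicate 3 alone, where 4.16% of all tested genes did, with log2 fold changes of -1.53 for IRS1 and -1.13 for IRS2. They also passed with sample quality weights, where 7.54% of all tested genes did. The call for these adaptors was thus decided by 1 library, GFP replicate 3.

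The count ratio of IRS1 to IRS2 was 1.24, 1.28 and 1.05 in GFP replicates 1 to 3 and 0.971, 0.891 and 0.998 in POU5F1B replicates 1 to 3. Every GFP library had more IRS1 than IRS2 counts and every POU5F1B library fewer, but POU5F1B replicate 3 was nearly level, at 413 against 414 counts. With 3 against 3 libraries an exact two-sided permutation test cannot go below p = 0.1, and the ratio is given as a description, singled out after its values were seen.

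Markers of tissue type moved between the same libraries. EPCAM, an epithelial adhesion protein, had 86.8, 89.4 and 519 CPM in GFP replicates 1 to 3 and 320.3, 331 and 252 CPM in POU5F1B replicates 1 to 3, and CDH1 (E-cadherin) had 33.7, 30.2 and 72.7 CPM against 164, 159 and 98.3 CPM. COL1A1, a fibrillar collagen chain, had 142, 118 and 16.9 CPM in GFP replicates 1 to 3 and 6.76, 5.56 and 9.49 CPM in POU5F1B replicates 1 to 3, and PDGFRB, a growth factor receptor of mesenchymal cells, had 28.2, 28.7 and 7.22 CPM against 8.73, 7.69 and 12.5 CPM. GFP replicates 1 and 2, the libraries with high IRS1 and IRS2, were those with high COL1A1 and PDGFRB and low EPCAM. These 4 markers were singled out after their values were seen, as were those named next. Some other markers of the same lists followed them. COL1A2 had 19, 19 and 1 counts in GFP and 0, 2 and 1 counts in POU5F1B replicates 1 to 3. VIL1 and KRT19, like EPCAM, were lowest in GFP replicates 1 and 2. KRT8 and KRT18 were too, over ranges of only 1.42-fold and 1.36-fold across libraries. LUM, CDX2 and KRT20 did not follow them. LUM, a fibroblast matrix protein, had 0, 0 and 34 counts in GFP and 0, 0 and 5 counts in POU5F1B replicates 1 to 3. CDX2, an intestinal transcription factor, had 27.7, 19.5 and 33.2 CPM in GFP and 16.4, 14.6 and 37.05 CPM in POU5F1B replicates 1 to 3, so it was higher in GFP than in POU5F1B replicates 1 and 2.

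The 6 fibroblast markers summed to 27.4 to 171 CPM in GFP and 13.4 to 22.6 CPM in POU5F1B libraries, with 2 of the 6 at 10 or more counts in every library and the defining markers COL3A1 and DCN at or under 3 counts in all. The part of these markers in the adaptor result was not tested.

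**Figure D2:**
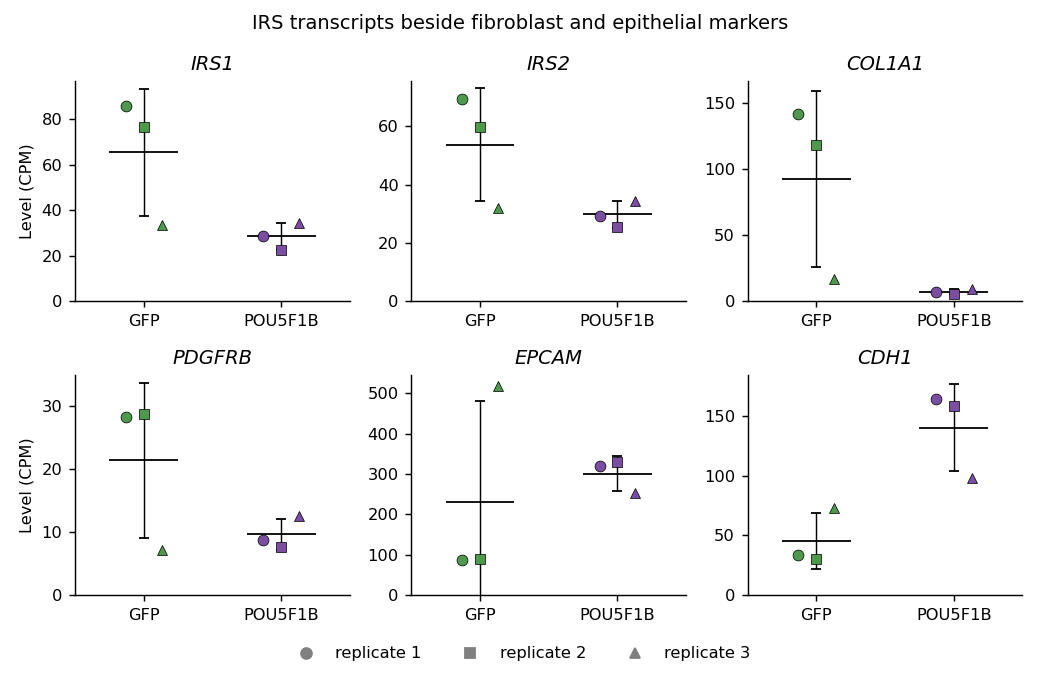
Level in CPM (vertical axis, from 0) of IRS1 and IRS2 beside the fibroblast markers COL1A1 and PDGFRB and the epithelial markers EPCAM and CDH1 in the 3 GFP (green) and 3 POU5F1B (purple) libraries, with mean and SD; the lower SD bar of EPCAM in GFP is clipped at 0. GFP replicates 1 and 2 are high for IRS1, IRS2, COL1A1 and PDGFRB and low for EPCAM, and GFP replicate 3 is not.

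Across the members, the difference between libraries of the same replicate number showed how much replicate 3 departed from the others. The numbers come from the titles, and nothing in the labels says that they mark a shared culture or day. For IRS1 the log2 difference, POU5F1B minus GFP, was -1.58 and -1.75 in replicates 1 and 2 and 0.03 in replicate 3. For IRS2 it was -1.23, -1.23 and 0.11, for IGF2R -0.71, -0.57 and 0.26, and for IGFBP6 -0.62, -0.25 and 0.86. IGF1R, IGFBP2 and IGFBP4 likewise had negative differences in replicates 1 and 2 and positive ones in replicate 3, while IGFBP3 was positive in each, at 0.64, 0.47 and 0.27.

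In all, 2 of the 10 members (20%), INSR and IGFBP3, had the sign of their fold change in replicates 1 and 2 again in replicate 3, against 47.4% of all tested genes. The median log2 fold change of the members was -0.22 with replicates 1 and 2 only, against -0.005 over all tested genes. With all libraries it was close to 0 (5 positive and 5 negative), against -0.02 over all tested genes.

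**Figure D3:**
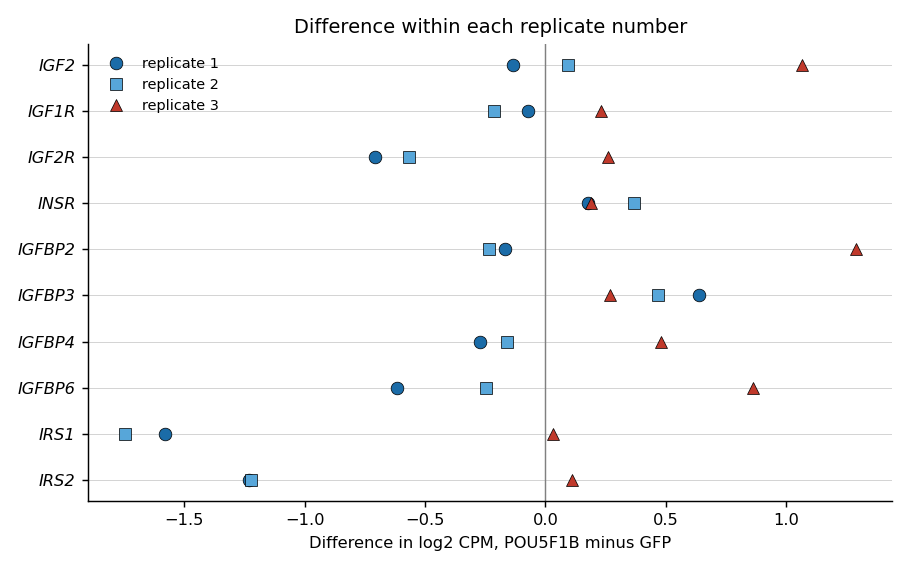
Difference in log2 CPM, POU5F1B minus GFP, between libraries of the same replicate number (horizontal axis) for each IGF axis transcript (vertical axis); circles, squares and triangles are replicates 1, 2 and 3. Triangles lie to the right of 0 for all 10 genes, and for IRS1, IRS2, IGF2R, IGFBP6, IGFBP4, IGFBP2 and IGF1R the other points lie to the left.

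For the members, replicate 3 lay farther from the other libraries in the control than in the POU5F1B group. POU5F1B replicate 3 also differed from its group in the transgene, with 1458 counts against 15027 and 11393. Relative to the mean CPM of GFP replicates 1 and 2, GFP replicate 3 was below 1 for 8 of the 10 members, against 48.3% of all tested genes, with ratios of 0.350 for IGFBP6, 0.414 for IRS1, 0.460 for IGFBP2 and 0.495 for IRS2. INSR at 1.10 and IGFBP3 at 1.27 were the exceptions. The median ratio was 0.624 over the members and 1.02 over all tested genes. In the POU5F1B group, replicate 3 was below 1 for 2 of the 10 members, against 49.8% of all tested genes, and the median ratio was 1.16 against 1.00.

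**Figure D4:**
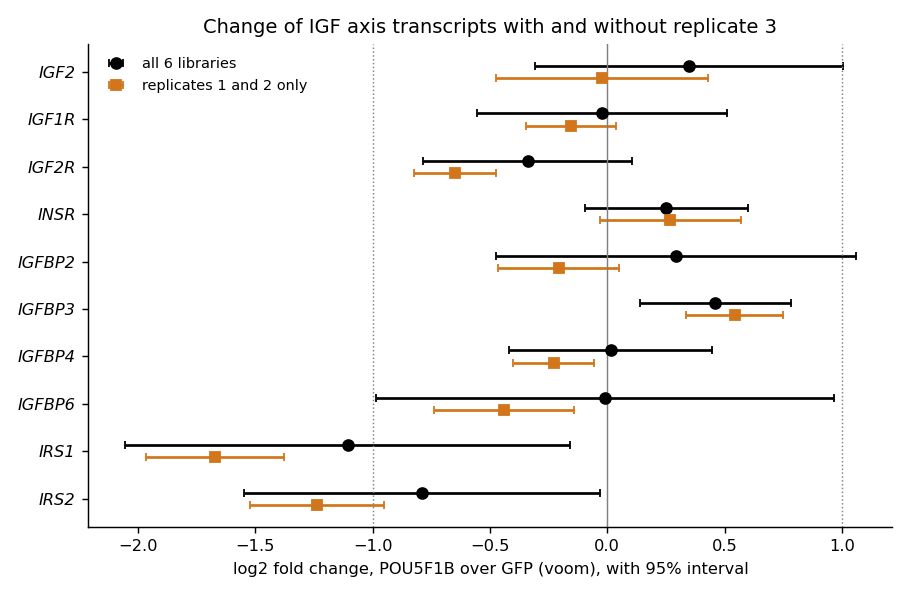
Log2 fold change of POU5F1B over GFP (horizontal axis) with its 95% interval from voom and limma for each IGF axis transcript, fitted to all 6 libraries (black circles) and to replicates 1 and 2 only (orange squares); dotted lines mark a 2-fold change. IRS1 and IRS2 are the lowest in both fits, and their intervals are narrower without the replicate 3 libraries.

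Levels were compared between genes after division by the length of the main annotated transcript in kb. In GFP libraries the order of mean CPM per kb was IGFBP4 (104 ± 23.9), IGFBP6 (66.4 ± 34.3), IGFBP2 (49.6 ± 19.4), IGFBP3 (39.8 ± 5.67), IGF2R (21.7 ± 4.12), IGF1R (9.04 ± 2.33), IRS1 (6.69 ± 2.85), IRS2 (6.58 ± 2.38), INSR (2.90 ± 0.310) and IGF2 (1.36 ± 0.377; SD, n = 3 each). The library values of the neighbours IGFBP4 and IGFBP6, IGFBP6 and IGFBP2, IGFBP2 and IGFBP3, IGF1R and IRS1, and IRS1 and IRS2 overlapped between libraries. Within libraries, where both genes of a pair are measured together, IGFBP4 was above IGFBP6 and IGF1R above IRS1 in 6 of 6. IGFBP6 was above IGFBP2 in 3 of 3 GFP and 2 of 3 POU5F1B libraries. IGFBP2 was above IGFBP3 in 2 of 3 libraries of each group. IRS1 was above IRS2 in 2 of 3 GFP and 0 of 3 POU5F1B libraries. The order of these last pairs was thus not the same in every library. The transcripts of the binding proteins were thus the most abundant of the 10, and that of the ligand IGF2 the least.

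In POU5F1B libraries the binding proteins again led, with IGFBP4 at 103 ± 3.88 and IGFBP6, IGFBP2 and IGFBP3 at 59.4 ± 4.86, 57.8 ± 10.4 and 54.4 ± 3.77 CPM per kb, which overlapped each other. IGF2R followed at 17.1 ± 2.98 and IGF1R at 8.76 ± 1.19 CPM per kb. IRS2 (3.65 ± 0.552), INSR (3.43 ± 0.122) and IRS1 (2.92 ± 0.597 CPM per kb) overlapped, and IGF2 was lowest at 1.70 ± 0.340 CPM per kb. The ligand IGF1 was uneven, at 0.509, 0.482 and 8.94 CPM per kb in GFP replicates 1 to 3 and 0.0865, 0.0637 and 1.58 CPM per kb in POU5F1B replicates 1 to 3. IGF1 was thus above IGF2 in GFP replicate 3 only.

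A further 76 genes of the insulin and IGF pathway, in 8 groups, were listed, of which 64 could be tested, and none passed the threshold with all libraries by limma or edgeR. DESeq2 called 4 of the 64, and 1.62% of all tested genes. At an unadjusted p under 0.05, 4 had positive and 7 negative fold changes, together 17.2% of the 64 against 11.9% of all tested genes, and the groups did not overlap for 15 (23.4%, against 19.4% of all tested genes). The median log2 fold change of the list was -0.15. With replicates 1 and 2 only, 8 of the 64 (12.5%, against 8.36% of all tested genes) passed the threshold, PAPPA and ERBB3 higher and IGF1, IGFBPL1, HTRA1, SH2B2, SESN3 and PDK4 lower with POU5F1B.

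Among ligands, IGF1 was the only one tested, with 44, 46 and 748 counts in GFP replicates 1 to 3 and 8, 5 and 138 counts in POU5F1B replicates 1 to 3. Both replicate 3 libraries were far above the others of their group, and the groups overlapped. Between libraries of the same number, the log2 difference, POU5F1B minus GFP, was -2.28, -2.54 and -2.49 in replicates 1, 2 and 3. The log2 fold change of IGF1 over all libraries was -2.54 ± 1.69 (adjusted p = 0.591 by limma). PAPPA, the metalloprotease that cleaves IGFBP4 and frees its ligand, had 6, 5 and 2 counts in GFP and 21, 27 and 16 counts in POU5F1B replicates 1 to 3. The groups did not overlap, at a level near the detection limit in the control, and the log2 fold change was 2.28 ± 0.48 (adjusted p = 0.207 by limma). IGFBPL1, a binding-protein-like gene, had 23, 40 and 43 counts in GFP and 7, 9 and 15 in POU5F1B replicates 1 to 3, a log2 fold change of -1.71 ± 0.43 (adjusted p = 0.239 by limma).

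The 3 IGF2 mRNA-binding proteins, which regulate IGF2 translation, had fold changes near 0, with IGF2BP1 at 0.23 ± 0.16 (adjusted p = 0.615 by limma) and IGF2BP2 at -0.09 ± 0.23 on the log2 scale (adjusted p = 0.904 by limma). None of 11 receptor-proximal adaptors and phosphatases had an unadjusted p under 0.05. The smallest p-values there belonged to SH2B2, an adaptor of the insulin receptor, with a log2 fold change of -0.98 ± 0.44 (adjusted p = 0.437 by limma), and SOCS3, a feedback inhibitor, at 0.68 ± 0.37 (adjusted p = 0.516 by limma).

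In the phosphoinositide 3-kinase, AKT and mTOR group, 17 of 20 fold changes were negative (85.0%, against 53.1% of all tested genes). An unadjusted p under 0.05 was found for 3 of the 20 (15.0%), near the 11.9% of all tested genes. PIK3R1, a regulatory subunit that binds phosphorylated IRS proteins, had 34.0, 35.4 and 73.1 CPM in GFP and 21.0, 24.4 and 19.9 CPM in POU5F1B replicates 1 to 3. Here GFP replicate 3 was the highest library, unlike for IRS1 and IRS2, and the groups did not overlap. Its log2 fold change was -1.03 ± 0.34 (adjusted p = 0.328 by limma), against -0.63 ± 0.21 for PIK3R3, another regulatory subunit (adjusted p = 0.324 by limma). RHEB, the GTPase that activates mTOR, was the other with an unadjusted p under 0.05 and was named after its value was seen. In the MAP kinase group of 5, MAP2K1 had a log2 fold change of 0.22 ± 0.11 (adjusted p = 0.489 by limma).

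Among 12 tested genes of the FOXO factors, which AKT signalling restrains, and their targets, the groups did not overlap for 6 (50.0%, against 19.4% of all tested genes), with 2 higher and 4 lower. SESN3, a stress-induced inhibitor of mTOR signalling, had 41.5, 36.0 and 55.3 CPM in GFP and 11.0, 13.3 and 20.0 CPM in POU5F1B replicates 1 to 3. PDK4, which restrains pyruvate oxidation, had 24.5, 29.9 and 41.9 CPM in GFP and 7.86, 12.3 and 18.1 CPM in POU5F1B replicates 1 to 3. For both, every POU5F1B library was below every GFP library. The log2 fold changes were -1.60 ± 0.27 and -1.38 ± 0.34 (adjusted p = 0.185 and 0.236 by limma). A separate list held 6 genes of insulin-pathway processing and trafficking. There the GFP and POU5F1B libraries did not overlap for 1 gene (16.7%, against 19.4% of all tested genes). It was SLC2A1, a glucose transporter, with 982, 833 and 761 CPM in GFP and 1507, 1331 and 1167 CPM in POU5F1B replicates 1 to 3. Its log2 fold change was 0.64 ± 0.14 (adjusted p = 0.210 by limma). CPD, a carboxypeptidase of the same list that trims prohormones, had -0.26 ± 0.13 (adjusted p = 0.499 by limma).

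**Figure D5:**
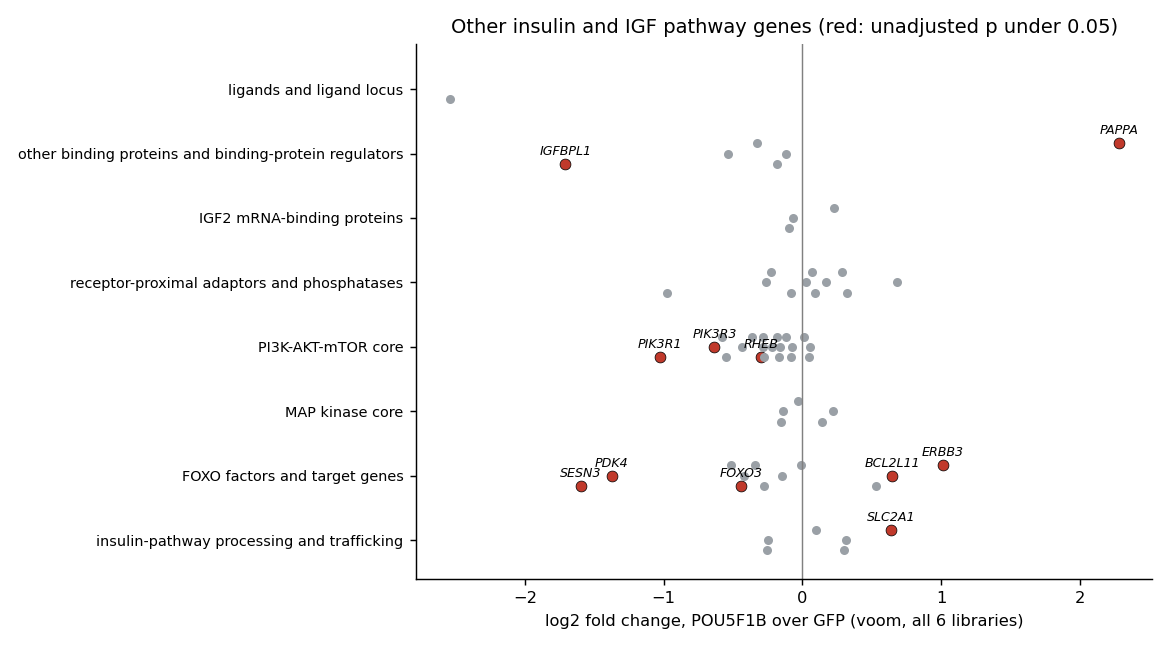
Log2 fold change of POU5F1B over GFP from voom and limma over all 6 libraries (horizontal axis) for the 64 tested genes of the wider insulin and IGF pathway, by group (vertical axis). Red, named points have an unadjusted p under 0.05, 4 to the right and 7 to the left of 0, and none passes after adjustment.

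Tested genes with a profile like that of a member were found by the root mean square (RMS) difference of centred log2 CPM over the 6 libraries. For IGF2 the 3 nearest genes included SFXN5 (0.105) and MIPEPP3 (0.105), against an RMS of 0.329 for the profile of IGF2 itself. The nearest gene to IRS1 was OGDHL (0.119, against 0.716 for IRS1 itself) and to IRS2 was ING4 (0.0762, against 0.534). IRS2 ranked 20 among the genes nearest to IRS1 and IRS1 ranked 79 among those nearest to IRS2, with 0.187 between them. The nearest genes were ZBTB4 for IGF1R (0.0269), KLHL22 for IGF2R (0.0190), DCTN1 for INSR (0.0393), YPEL3 for IGFBP2 (0.0771) and TBRG4 for IGFBP3 (0.0353). With 6 libraries and 14286 genes, some gene lies near almost any profile.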

How the data were processed

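RNA of 6 SW480 libraries, 3 per group, was made into stranded poly(A) libraries. The authors mapped reads to hg19 with HISAT2 and counted uniquely mapped reads with featureCounts on genes and transposable elements, and deposited whole-number counts per gene and library, without normalization. The strand setting and annotation release are not given in the sources used here, so counts of overlapping genes are uncertain. Groups and replicate numbers came from the titles; nothing says that replicates were separate cultures, so p-values measure only the spread between these samples.

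Here 14286 genes passed filterByExpr of edgeR 4.0.16. Voom and limma 3.58.1 in R 4.3.3, with TMM scaling, tested POU5F1B against GFP, two-sided, and p-values were adjusted by Benjamini-Hochberg across the 14286 genes. The threshold was an adjusted p under 0.05 and a fold above 2, as in the methods of the study. CPM used TMM library sizes and log2 CPM a prior count of 2. Lengths and GRCh37 positions, 1-based, came from a GENCODE annotation that may differ from the one used for counting. Promoters came from RefSeq on GRCh38.p14, and 9 of 10 members matched. Depth was 10767947 to 12787637 counts, and the limit of 3 counts covers counting error only.

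Alternatives were the edgeR quasi-likelihood test, DESeq2 1.42.0, DESeq2 size factors, genes with at least 1 count in total, sample quality weights, the replicate number as a block, replicates 1 and 2 only, and leaving out each library over the same genes. The fits were also run on simulated counts, drawn independently for each gene. No simulated library departed as a whole, so the simulation cannot show how the fits behave with a library like GFP replicate 3. The members, lists and alternatives were chosen with earlier results of these data known. Named genes were the 10 members, POU5F1B, the neighbours of IGF2, the nearest profiles, and in each pathway group the genes past the threshold or otherwise the 2 with the smallest p; genes past the threshold with replicates 1 and 2 only, and markers singled out beside IRS1 and IRS2, were named after their values were seen. Of the 4 marker lists, PECAM1 was not matched. A few genes that the rule names are not reported here.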

Additional observations from a re-analysis of the deposited data

How the results depend on the processing

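The count of members past the threshold was 0 with limma, edgeR, DESeq2, DESeq2 size factors, no filter and the replicate block, and 2 (IRS1 and IRS2) with sample quality weights and with replicates 1 and 2 only; leaving out 1 library gave 0 to 2, with 2 only without GFP replicate 3. Over all genes the count was 0 with limma (1698 at an unadjusted p under 0.05) and edgeR (1720), and 232 with DESeq2, 4 with no filter, 1077 with quality weights, 1 with the replicate block, 1194 with replicates 1 and 2 only and 0 to 595 without 1 library, the most without GFP replicate 3. For the pathway list it was 0 with limma, 4 with DESeq2, 6 with quality weights, 8 with replicates 1 and 2 only and 0 to 4 without 1 library. The cause of these differences was not tested. The block gave log2 fold changes of -1.16 for IRS1, -0.83 for IRS2 and 0.46 for IGFBP3. Deviations of libraries with the same number correlated at 0.242, 0.0883 and 0.165 over 14286 genes, and replicate 2 did not correlate best with its own number, so the pairing of libraries was not taken as shown.

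Of 130 member values under the alternatives, 107 kept direction and side of the threshold, 6 passed it with the same direction, and 17 changed sign, none of them past the threshold. With replicates 1 and 2 only, the log2 fold change turned to -0.022 for IGF2, -0.21 for IGFBP2 and -0.23 for IGFBP4. Quality weights gave -0.052 for IGFBP2 and -0.17 for IGFBP4, edgeR gave -0.012 and DESeq2 -0.013 for IGFBP4, and no filter gave 0.0046 for IGFBP6. Without 1 library the range was -0.27 to 0.12 for IGF1R, -0.082 to 0.53 for IGFBP2, -0.20 to 0.15 for IGFBP4 and -0.50 to 0.34 for IGFBP6. IGFBP3 and INSR stayed positive and IRS1, IRS2 and IGF2R negative under all of these alternatives, from 0.41 to 0.59, 0.17 to 0.33, -1.67 to -0.86, -1.24 to -0.57 and -0.65 to -0.22.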
